A study of Mus musculus with 6 samples.

Results

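The guanylate-binding proteins examined here are Gbp2, Gbp2b, Gbp3, Gbp4, Gbp5, Gbp6, Gbp7 and Gbp9 of the mouse. They were chosen by gene symbol alone and make up 8 of the 22442 genes in the deposited table and 8 of its 11 Gbp genes. All 8 were above 0 in at least 1 library. The other 3, Gbp8, Gbp10 and Gbp11, were not in the chosen set and are given only where they touch a result. RNA was sequenced from mTECs, an immortalised murine tubular epithelial line that the labels describe as magnetically sorted, in 6 libraries. Of these, 3 labelled LPS came from cells transfected with a negative control, and 3 labelled LPSKD came from cells transfected with an RNA meant to silence Stat3, which the labels call an siRNA. Both groups then received lipopolysaccharide at 20 μg/ml for 24 h, so LPS is common to every library and none was left without it. The comparison asked what silencing of Stat3 changes in cells that have met LPS, and no genotype, strain or animal is involved.

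Guanylate-binding proteins are large GTPases of the dynamin superfamily that interferon induces through transcription factors of the STAT and IRF families. They assemble on bacteria and on the vacuoles that enclose intracellular pathogens, and they promote the activation of inflammasomes, including the caspase-11 pathway (Casp4 in the mouse) that senses cytosolic LPS and cleaves gasdermin D. Some members end in a CaaX box, to which a prenyl group is added so that the protein can sit on membranes. In the mouse the genes stand in clusters on chromosomes 3 and 5.

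Each library held between 24084828 and 25422173 fragments, recovered from the deposited FPKM values (fragments scaled to gene length and to the library total). Stat3 itself was at 34.6, 31.4 and 35.2 FPKM under the LPS label and at 30.8, 35.2 and 34.3 FPKM under the LPSKD label, a log2 fold change of -0.01 (SE 0.07, limma adjusted p = 0.944). The groups overlapped in the targeted transcript, and they are therefore called by their labels throughout. The tubular epithelial label held against its markers: the 10 epithelial markers listed summed to between 5147 and 5537 FPKM in every library. The T, NK and B cell markers summed to at most 3.07 FPKM and the endothelial ones to at most 4.46 FPKM. Between 121 and 128 FPKM of 7 macrophage markers were present under the LPS label and between 138 and 146 FPKM under the LPSKD label. Most of this was Cd14 (64.0 ± 1.36 and 73.3 ± 2.54 FPKM), Csf1r, Lyz2 and Cd68, while Ptprc, the pan-leukocyte marker, did not exceed 1.08 FPKM and Adgre1 did not exceed 1.29 FPKM. Fibroblast markers summed to between 17.4 and 32.2 FPKM. No listed marker was at 0 in all libraries, and the part of these levels in the results below was not tested. In bulk RNA, fewer cells that express a gene and less RNA per cell cannot be told apart.

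The genes lie on the GRCm38 assembly. The cluster of chromosome 3, on the forward strand, holds Gbp5 at chr3:142493978-142522344, Gbp7 at chr3:142530342-142550149, Gbp3 at chr3:142560026-142573209, Gbp2b at chr3:142594847-142619179 and Gbp2 at chr3:142620602-142638008. The cluster of chromosome 5, on the reverse strand, holds Gbp9 at chr5:105077630-105139539, Gbp4 at chr5:105115767-105139586 and Gbp6 at chr5:105270702-105293698. The same cluster holds Gbp8 at chr5:105014150-105139540, whose annotated span overlaps those of Gbp9 and Gbp4.

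Promoter windows from RefSeq, running from 250 bases before to 50 bases after a start site on GRCm38.p6, were at hand for 5 members, all of chromosome 3. They were searched on both strands for TTTCNNTTTC (GAAANNGAAA on the other strand), the core of the interferon-stimulated response element that ISGF3 and IRF factors bind, and for TTCNNNGAA, the palindrome that STAT dimers bind. The first was present in the windows of 5 of the 5 genes, against 3.44% of all 32851 promoter windows and 3.99% of 27025 genes. The stretches around these matches are shown because they hold the motif that these members share ahead of their RefSeq start sites. Each is written 5′ to 3′ on the forward strand, with the matching bases in capitals and 15 bases on either side.
Gbp5, chr3:142496754-142496793: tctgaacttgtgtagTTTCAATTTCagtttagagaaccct
Gbp7, chr3:142530268-142530307: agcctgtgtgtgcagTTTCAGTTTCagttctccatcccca
Gbp3, chr3:142559984-142560029: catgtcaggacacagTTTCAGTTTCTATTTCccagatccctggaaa
Gbp2b, chr3:142594695-142594734: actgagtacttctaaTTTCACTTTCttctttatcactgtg
Gbp2, chr3:142620589-142620628: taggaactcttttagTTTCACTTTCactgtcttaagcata

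Counted from the RefSeq start as 0, the match began at -165 in Gbp5, at -137 in Gbp2b, at -59 in Gbp2 and at -53 in Gbp7. Gbp3 held 2 overlapping matches, which began at -45 and -39, in 1 of its 2 windows. The neighbours Gbp2b and Gbp2 carried the same 10 bases, TTTCACTTTC, and Gbp7 and the first match of Gbp3 carried TTTCAGTTTC. In the GENCODE annotation, whose starts differ, 27 of the 40 bases shown for Gbp2, its match among them, fall in a first exon. So do 4 of the 46 bases shown for Gbp3, and the stretch shown for Gbp5 lies inside its annotated span. The STAT palindrome was found 2 times in the window of Gbp5 (TTCTGGGAA and TTCTCAGAA) and 2 times in that of Gbp7 (TTCCAGGAA and TTCTCAGAA), against 8.30% of all windows and 9.55% of genes. It was not in the windows of Gbp3, Gbp2b or Gbp2. These matches describe letters in the windows and not binding.

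All 8 members were lower on average under the LPSKD label. Of the 7 whose mean over the 6 libraries reached 0.5 FPKM and which were therefore tested among 11723 genes, Gbp3, Gbp2b and Gbp9 fell and 0 rose (limma, Benjamini-Hochberg adjusted p under 0.05). Among all genes tested, 3.23% passed this adjusted threshold, 1.66% as lower and 1.57% as higher in LPSKD. Gbp2b and Gbp7 passed the filter on low values only through the LPS libraries, since their LPSKD means were under 0.5 FPKM, and without the filter 0 of the 8 members were called. At an unadjusted p under 0.05, 4 were lower, Gbp2 being the addition, and 0 higher, against 8.91% and 8.65% of all genes. Voom on the recovered fragments called the same 3 genes, against 2.69% of the genes it tested called as lower and 2.38% as higher. The groups did not overlap, with LPSKD lower, in 4 of the 7, namely Gbp3, Gbp2b, Gbp9 and Gbp2, against 13.2% of all genes. A lower fitted value was found in 7 of 7 members and in 52.5% of all genes. The median log2 fold change was -0.47 over the 7 members and -0.01 over all genes tested, and in the fit without the filter -0.60 over the 8 members and -0.01 over all genes. The count of 3 depended on the fit. It went to 0 without a filter on low values, without a trend in the variance, or without LPS replicate 3, LPSKD replicate 1 or LPSKD replicate 3, to 1 without LPS replicate 1 or LPS replicate 2, and to 2 without LPSKD replicate 2, while the direction of every member stayed the same. The labels do not say whether replicates of a group came from separate transfections, so the p-values measure only the spread between these libraries.

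**Figure D1:**
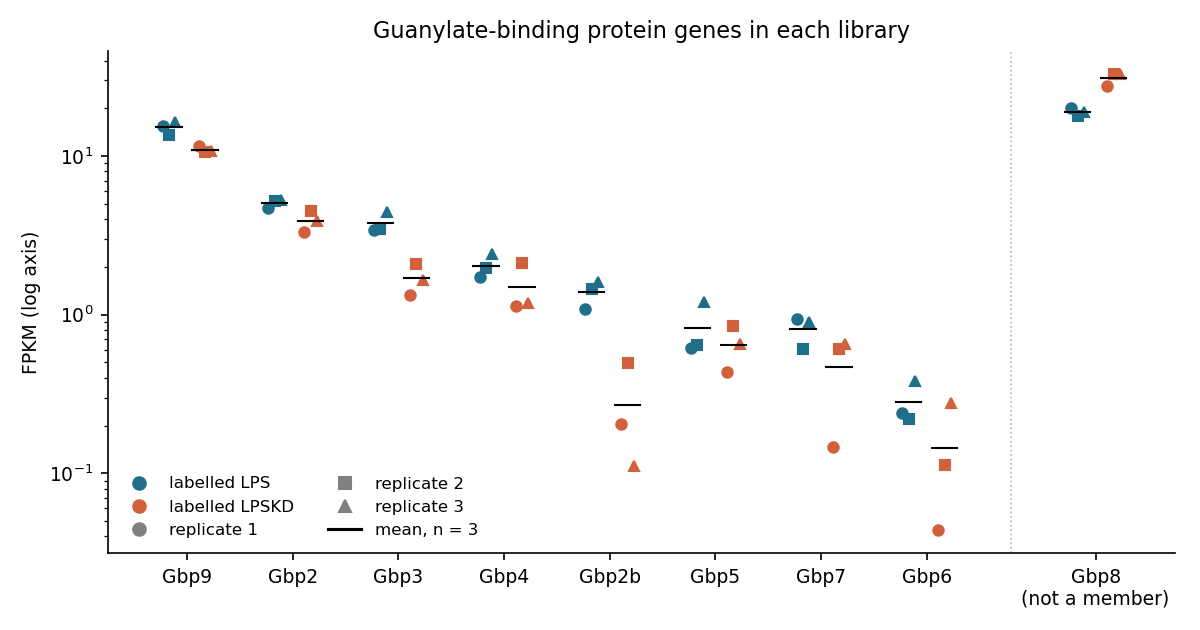
FPKM on a log axis of each member, and of Gbp8 for comparison, in the 3 libraries labelled LPS and the 3 labelled LPSKD; bars are group means (n = 3) and symbols mark the replicate number, which pairs nothing. The LPSKD points of Gbp9, Gbp2, Gbp3 and Gbp2b lie below all LPS points, those of Gbp4, Gbp5, Gbp7 and Gbp6 mix with them, and Gbp8 lies above.

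Among the members whose protein ends in a CaaX box, Gbp2b (ENSMUSG00000040264, formerly called Gbp1) showed the largest change of the 8. Its level was 1.09, 1.45 and 1.60 FPKM under the LPS label and 0.204, 0.493 and 0.111 FPKM under the LPSKD label. These rest on 48, 64 and 69 fragments against 9, 21 and 5. Every LPSKD library lay well under every LPS library, and the mean fell by 80.5%, from 1.38 ± 0.261 to 0.269 ± 0.199 FPKM (SD, n = 3). On the log2(FPKM + 0.1) scale, which understates the change of a low gene, the fold change was -2.12 (SE 0.45, 95% confidence interval -3.14 to -1.10, limma adjusted p = 0.0432). With a pseudocount of 1 it was -0.91 (adjusted p = 0.0294), and with one of 0.01 it was -2.54 and no longer passed (adjusted p = 0.0572). Gbp2b met the filter on low values only through the LPS libraries, and without the filter its adjusted p was 0.0673.

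Gbp2 (ENSMUSG00000028270), which coats vacuoles of parasites and cytosolic bacteria, was the most abundant member of the chromosome 3 cluster. It stood at 4.73, 5.20 and 5.28 FPKM under the LPS label and at 3.33, 4.49 and 3.89 FPKM under the LPSKD label. All LPSKD values lay below all LPS values, but LPSKD replicate 2 came close to LPS replicate 1. The log2 fold change of -0.38 (SE 0.14, 95% confidence interval -0.69 to -0.06) did not pass after adjustment (limma adjusted p = 0.210).

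Gbp5 (ENSMUSG00000105504), known for promoting assembly of the Nlrp3 inflammasome, stood at 0.613, 0.648 and 1.20 FPKM against 0.436, 0.851 and 0.652 FPKM. The groups overlapped: LPSKD replicates 2 and 3 lay above LPS replicates 1 and 2, and the higher LPS mean owed most to replicate 3. With between 25 and 67 fragments a library, the log2 fold change was -0.28 (95% confidence interval -1.16 to 0.59, limma adjusted p = 0.763), an interval that holds both no change and a fall of the size seen in Gbp9. It was -0.0077 without LPS replicate 3 and -0.0646 without LPSKD replicate 1.

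Gbp3 and Gbp7 stand next to each other on chromosome 3 and share 79.5% of their aligned coding bases. Gbp3 (ENSMUSG00000028268) was at 3.43, 3.45 and 4.44 FPKM under the LPS label and at 1.33, 2.10 and 1.65 FPKM under the LPSKD label, from 159, 160 and 202 against 62, 94 and 78 fragments. The highest LPSKD library stayed clear of the lowest LPS library. The log2 fold change was -1.12 (SE 0.20, 95% confidence interval -1.59 to -0.66, limma adjusted p = 0.0259), the smallest adjusted p of the 8 members, and the mean fell by 55.2%.

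Gbp7 (ENSMUSG00000040253), reported to help assemble the phagocyte NADPH oxidase, was at 0.944, 0.608 and 0.898 FPKM and at 0.146, 0.607 and 0.657 FPKM. Only LPSKD replicate 1, with 7 fragments, was far below the LPS libraries, while LPSKD replicate 2 lay level with the lowest of them and LPSKD replicate 3 above it. The log2 fold change of -0.83 had a wide interval (95% confidence interval -1.96 to 0.31, limma adjusted p = 0.437), and without that library it was -0.30. The difference between Gbp3 and its neighbour was not tested beyond the ratios given below.

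On chromosome 5, Gbp9 (ENSMUSG00000029298) was the most abundant member. It was at 15.4, 13.6 and 16.4 FPKM under the LPS label and at 11.5, 10.6 and 10.7 FPKM under the LPSKD label, from 630 to 746 against 472 to 535 fragments. All LPSKD libraries were below all LPS libraries. The log2 fold change was -0.46 (SE 0.09, the smallest error of the 8 members, 95% confidence interval -0.66 to -0.26, limma adjusted p = 0.0288), and the mean fell by 27.9%. The sequence it shares with Gbp8 is given with that gene.

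Gbp4 (ENSMUSG00000079363) had much the same fitted change, -0.47, with a larger error (SE 0.27, 95% confidence interval -1.10 to 0.16, limma adjusted p = 0.422). Its values were 1.72, 1.97 and 2.40 FPKM and 1.14, 2.13 and 1.18 FPKM. LPSKD replicate 2 lay inside the LPS range and the other two lay below it. Of its 31-base coding stretches, 41.0% occur in another gene. With 1 library left out, the log2 fold change lay between -0.74, without LPSKD replicate 2 (adjusted p = 0.223), and -0.32, without LPSKD replicate 1 (adjusted p = 0.698).

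Gbp6 (ENSMUSG00000104713) was the least abundant and did not reach the filter. It had 11, 10 and 17 fragments under the LPS label and 2, 5 and 13 under the LPSKD label, or 0.241, 0.219 and 0.380 against 0.0437, 0.113 and 0.279 FPKM. LPSKD replicate 3 overlapped the LPS libraries. In a fit of all genes above 0 its log2 fold change was -0.72 (95% confidence interval -1.65 to 0.21, limma adjusted p = 0.487). Its coding sequence is 98.4% identical to that of Gbp10, and 70.2% of its stretches of 31 bases occur in Gbp10. In Gm43302, an overlapping locus listed at 0 in all 6 libraries, 96.5% of them occur, so the split of fragments between these genes is uncertain.

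**Figure D2:**
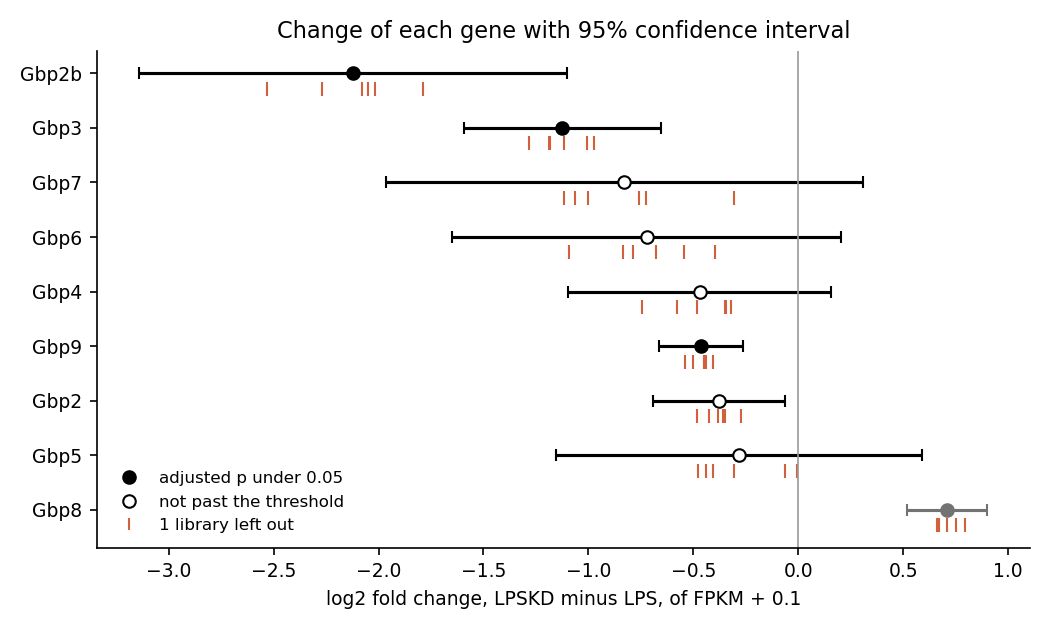
Log2 fold change of each member and of Gbp8 (grey), LPSKD minus LPS, with 95% confidence intervals; filled points passed an adjusted p of 0.05 and red ticks give the value with 1 library left out. The points of the 8 members lie between -2.12 and -0.28, the intervals of Gbp7, Gbp6, Gbp4 and Gbp5 cross 0, and no tick of a member crosses 0.

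Gbp8 (ENSMUSG00000034438), outside the chosen set, went the other way. It stood at 20.1, 17.9 and 18.9 FPKM under the LPS label and at 27.6, 33.1 and 32.8 FPKM under the LPSKD label, from 701 to 787 against 1084 to 1314 fragments, with no overlap. The log2 fold change was 0.71 (SE 0.08, 95% confidence interval 0.52 to 0.90, limma adjusted p = 0.00323), and Gbp8 rose under each alternative that was run. It was the most abundant Gbp gene of the table, and its coding bases are 90.7% identical to those of Gbp9 where they align. The annotated 5′ ends of Gbp8, Gbp9 and Gbp4 lie close together inside the cluster, as the spans above show, and 46.1% of the 31-base stretches of Gbp8 and 38.9% of those of Gbp9 occur in another gene. Within each library, the log2 ratio of Gbp8 to Gbp9 was 0.38, 0.39 and 0.20 under the LPS label and 1.25, 1.64 and 1.61 under the LPSKD label. This ratio, chosen after the values were seen, differed by 1.17 (SE 0.14, two-sided exact permutation p = 0.1, the smallest that 3 against 3 libraries allow). How shared fragments were assigned between the genes was not tested. Gbp10 and Gbp11, with 7 to 26 and 2 to 18 fragments a library, had log2 fold changes of -0.41 and -0.78 (limma adjusted p = 0.690 and 0.502), and their groups overlapped.

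**Figure D3:**
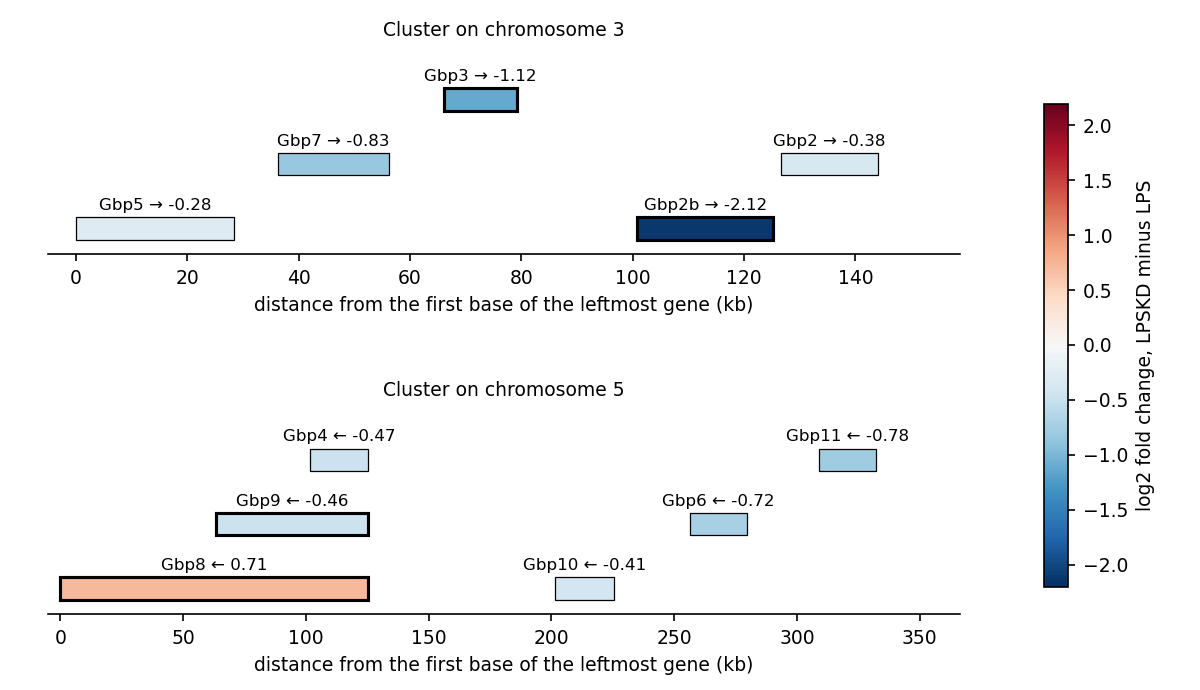
Annotated spans of the Gbp genes of chromosomes 3 and 5, in kb from the leftmost gene, coloured and labelled by log2 fold change (LPSKD minus LPS); arrows give the strand and thick outlines an adjusted p under 0.05, and heights only keep labels apart. Values of -2.12 and -0.38 stand side by side in Gbp2b and Gbp2, and 0.71 and -0.46 in the overlapping spans of Gbp8 and Gbp9.

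FPKM is scaled to gene length, so levels were set against each other, with a limit from shared sequence. Of the 31-base coding stretches, 38.9% of those of Gbp9 and 41.0% of those of Gbp4 occur in another gene. For Gbp6, 70.2% occur in Gbp10, while for Gbp2b and Gbp2 only 6.68% and 6.91% occur in any other gene. How shared fragments were assigned was not tested, so the order below describes the listed FPKM values only. In the libraries labelled LPS the order of the means was Gbp9, Gbp2, Gbp3, Gbp4, Gbp2b, Gbp5, Gbp7 and Gbp6. The ranges of neighbours over the 3 libraries did not overlap, except those of Gbp2b and Gbp5 and of Gbp5 and Gbp7. In the libraries labelled LPSKD, Gbp2b moved from the fifth place to the seventh. Gbp3 and Gbp4 then overlapped, and so did each neighbouring pair among Gbp5, Gbp7, Gbp2b and Gbp6.

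The 8 members together amounted to 28.2, 27.2 and 32.6 FPKM under the LPS label and to 18.2, 21.3 and 19.1 FPKM under the LPSKD label. The sums did not overlap, and their means of 29.3 ± 2.90 and 19.5 ± 1.62 FPKM (SD, n = 3) differed by -33.4% (two-sided exact permutation p = 0.1, the smallest possible). Gbp9 made up much of this sum, and without it the difference was -39.2%. The members of chromosome 3 summed to 11.9 ± 1.37 against 6.98 ± 1.54 FPKM, a difference of -41.1%, and those of chromosome 5 to 17.5 ± 1.70 against 12.6 ± 0.335 FPKM, a difference of -28.1% (both exact permutation p = 0.1). Whether the clusters differed from each other was not tested. These sums leave out Gbp8, the most abundant Gbp gene. Over all 11 Gbp genes, a sum added after the values were seen, the direction turned: 48.6, 45.6 and 52.6 FPKM stood against 46.2, 54.7 and 52.3 FPKM, with overlap (a difference of 4.38%, two-sided exact permutation p = 0.6). For the 6 Gbp genes of chromosome 5, also summed after the values were seen, the direction turned without overlap. Their sums were 37.8, 34.2 and 39.1 FPKM against 40.8, 46.1 and 45.4 FPKM (a difference of 18.9%, two-sided exact permutation p = 0.1).

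Shares of the sum of the 8 members, which leaves out Gbp8, do not depend on how a library was scaled. Gbp9 held 51.7% ± 2.56 of the sum under the LPS label and 56.3% ± 7.01 under the LPSKD label (SD, n = 3), with overlap. Over all 11 Gbp genes the mean sum was 48.9 and 51.1 FPKM, while Gbp9 went from 15.2 to 10.9 FPKM. Its part of those means was thus smaller under the LPSKD label. The share of Gbp3 was 12.2%, 12.7% and 13.6% against 7.34%, 9.83% and 8.61%, and that of Gbp2b was 3.87%, 5.35% and 4.89% against 1.12%, 2.31% and 0.581%. These were the 2 shares whose groups did not overlap (two-sided exact permutation p = 0.1 for each, adjusted over the 8 shares 0.4). With 3 libraries against 3, no share could pass the threshold.

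**Figure D4:**
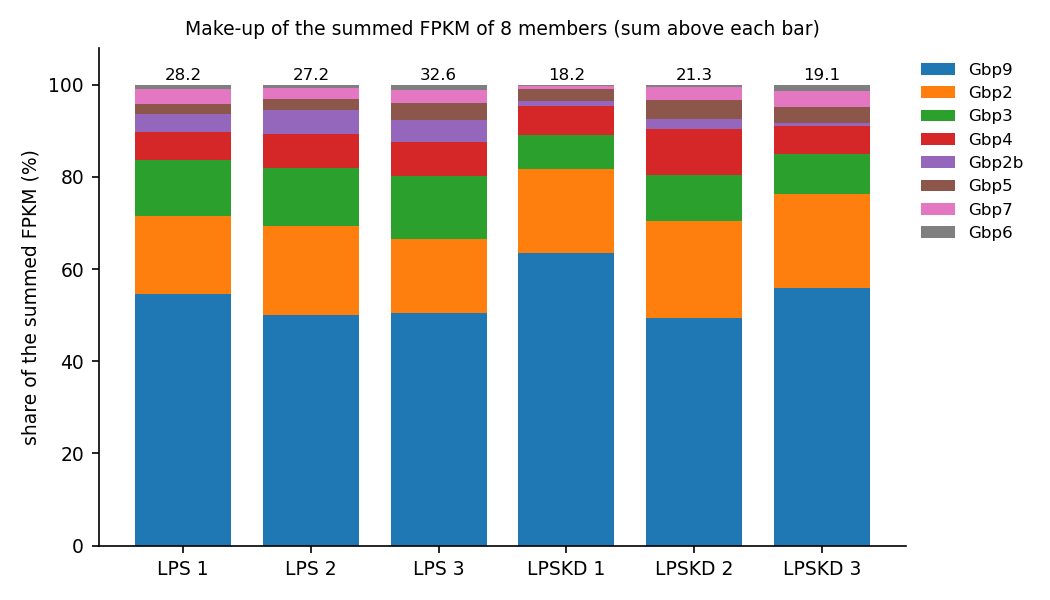
Share of each member in the summed FPKM of the 8 members, in percent, in each library, with the sum in FPKM above each bar. Gbp8, the most abundant Gbp gene, is left out. Gbp9 takes between 49.5% and 63.5% of each bar, the sums are 27.2 to 32.6 FPKM under the LPS label and 18.2 to 21.3 FPKM under the LPSKD label, and the bands of Gbp3 and Gbp2b are thinner in the LPSKD libraries.

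Against Gbp2, the log2 ratio of Gbp2b within a library was -2.02, -1.77 and -1.66 under the LPS label and -3.50, -2.95 and -4.24 under the LPSKD label, a difference of -1.74 (SE 0.39). Gbp2b is the neighbour of Gbp2 and its closest relative among the members of the chromosome, with 82.5% of aligned coding bases identical. Only 6.68% of the 31-base stretches of Gbp2b and 6.91% of those of Gbp2 occur in any other gene. For Gbp3 the ratio to Gbp2 was -0.45, -0.58 and -0.24 against -1.26, -1.06 and -1.19, a difference of -0.75 (SE 0.11). Neither ratio overlapped between the groups (two-sided exact permutation p = 0.1 each, adjusted over 7 ratios 0.35). The ratios of Gbp4, Gbp5, Gbp6, Gbp7 and Gbp9 to Gbp2 overlapped, with differences from -0.45 to 0.09.

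Across libraries, the mean of the members' log2 profiles, each centred on its own mean, was 0.29, 0.30 and 0.63 under the LPS label and -0.74, -0.02 and -0.45 under the LPSKD label. In this mean, LPSKD replicate 2 stood nearest to the LPS libraries and LPSKD replicate 1 farthest. Gbp2, Gbp3, Gbp4 and Gbp5 each had that order. Gbp9 was highest of the LPSKD libraries in replicate 1 (11.5 FPKM), Gbp2b was lowest in replicate 3, and Gbp7 was highest in replicate 3. The mean counts each member alike, also Gbp7 with 7 fragments in LPSKD replicate 1. The tested genes outside the family that followed this mean profile most closely, by the root mean square distance over the 6 libraries with 7 members in the profile, were Mndal (0.126), Eif2ak2 (0.142), Aqp9 (0.149), Mss51 (0.187) and Trim25 (0.195). Of these, Eif2ak2, the double-stranded RNA-activated kinase PKR, fell from 39.4 ± 1.64 to 23.7 ± 2.83 FPKM (log2 fold change -0.74, limma adjusted p = 0.00302). Trim25, a ubiquitin ligase, fell from 9.29 ± 0.801 to 4.88 ± 0.845 FPKM (log2 fold change -0.93, limma adjusted p = 0.0112). Mndal, Aqp9 and Mss51 had log2 fold changes of -0.71, -0.87 and -0.49 and did not pass (limma adjusted p = 0.0582, 0.223 and 0.392).

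The genes that induce the family or restrain its induction moved unevenly. The list held 18 genes for interferons, their receptors, the kinases and transcription factors upstream, and inhibitors of this signalling. Of these, 15 were tested, 3 fell and 2 rose. Among all genes tested, 1.66% were called lower and 1.57% higher. Irf9, the DNA-binding part of ISGF3, was at 21.6, 21.1 and 20.8 FPKM against 4.59, 6.36 and 5.49 FPKM (log2 fold change -1.94, SE 0.11, limma adjusted p = 6.51e-05). The groups were far apart, and Stat2, another part of ISGF3, fell by 0.52 on the log2 scale. The interferon-gamma receptor genes rose: Ifngr1 by 0.39 and Ifngr2 by 0.29 (limma adjusted p = 0.000892 and 0.0218). Irf1, which binds the same kind of element, was at 17.8 ± 2.37 and 15.4 ± 0.612 FPKM with overlap (log2 fold change -0.19, limma adjusted p = 0.353), and the feedback inhibitor Socs1 at 1.10 ± 0.363 and 1.01 ± 0.475 FPKM. Ifng was listed at 0 in 5 of the 6 libraries. Ifnb1 was at 0.147, 0.147 and 1.20 FPKM under the LPS label, and under the LPSKD label it was listed at 0 in replicates 1 and 2 and at 0.0720 FPKM in replicate 3, below the filter throughout.

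The immunity-related GTPases, which act with Gbp proteins on pathogen vacuoles, fell in 4 of 8 tested cases and rose in 0. The shares of all genes tested were 1.66% lower and 1.57% higher. Irgm1, a regulator that keeps the other GTPases of its family inactive, went from 76.4 ± 1.98 to 26.0 ± 0.517 FPKM (log2 fold change -1.55, limma adjusted p = 2.36e-06). The regulators Irgm2 and Igtp fell by 1.48 and 1.09 on the log2 scale, and the effector Tgtp1 fell by 2.17 (limma adjusted p = 0.0156, 0.00770 and 0.00438). Tgtp1 has a near-identical copy, Tgtp2, so the value of Tgtp1 is uncertain. Tgtp2 was at 1.00 ± 0.375 and 0.754 ± 0.252 FPKM with overlap (log2 fold change -0.36, limma adjusted p = 0.675). The median log2 fold change over the 8 was -0.84.

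The inflammasome genes on which Gbp proteins act showed 0 of 11 tested genes past the adjusted threshold of limma in either direction, with a median log2 fold change of -0.04. At an unadjusted limma p under 0.05, 2 were lower, Zbp1 among them, and 2 higher (Aim2 and Ninj1). Among all genes, 8.91% were lower and 8.65% higher at that p, and 1.66% and 1.57% passed after adjustment. Voom on the recovered fragments called 1 lower, against 2.69% of the genes it tested. The LPS sensor Casp4 was at 2.12 ± 0.129 and 2.16 ± 0.0883 FPKM (log2 fold change 0.03, limma adjusted p = 0.951). The pore-forming Gsdmd was at 0.535 ± 0.107 and 0.649 ± 0.423 FPKM (0.09, adjusted p = 0.947), and Casp1 at 1.28 ± 0.0994 and 0.985 ± 0.275 FPKM (-0.38, adjusted p = 0.518). Aim2, which senses cytosolic DNA, was at 14.5 ± 0.515 and 16.2 ± 0.627 FPKM with no overlap (0.16, adjusted p = 0.250). The cytokine gene Il1b was at 0.451 ± 0.249 and 0.789 ± 0.433 FPKM, and Il18, Nlrp3 and its adaptor Pycard were below the filter. Low levels and wide errors leave changes in several of these genes undetectable at this depth.

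Among ubiquitin and autophagy factors and the kinase Pim1, which act with or on Gbp proteins at bacteria and vacuoles, 2 of 15 tested genes fell and 0 rose. Of all genes tested, 1.66% fell and 1.57% rose past the same threshold. Rnf213, a ubiquitin ligase that coats bacteria by modifying LPS, went from 44.5 ± 1.89 to 29.6 ± 0.664 FPKM (log2 fold change -0.58, limma adjusted p = 0.000729). The antibody receptor and ubiquitin ligase Trim21 went from 6.51 ± 0.307 to 3.04 ± 0.482 FPKM (-1.08, adjusted p = 0.00549). Pim1 was at 28.5 ± 1.00 and 31.2 ± 3.69 FPKM, and the autophagy receptor Sqstm1 at 964 ± 22.1 and 997 ± 13.2 FPKM, neither past the threshold.

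The enzymes that prenylate CaaX proteins or process them afterwards had 0 of 6 genes past the threshold in limma and 0 in voom. Of the 6, 1, Pggt1b, was lower at an unadjusted limma p under 0.05 and past the threshold without LPS replicate 2 (limma adjusted p = 0.0485). The farnesyltransferase subunits Fnta and Fntb had log2 fold changes of 0.01 and 0.05, and Pggt1b, which serves the transfer of the longer, geranylgeranyl group, one of -0.22 with no overlap between the groups (limma adjusted p = 0.150). Of the other dynamin-type GTPases, 0 of 12 tested passed in limma, and voom called Ehd1 higher, against 2.38% of the genes it tested. At an unadjusted limma p under 0.05, 1 was lower (Dnm1l) and 1 higher (Ehd1). For both lists, the shares among all genes at that p were 8.91% lower and 8.65% higher. The atlastins Atl2 and Atl3 had log2 fold changes of -0.08 and 0.09. Mx1 and Mx2, interferon-induced antiviral GTPases, lay below the filter at 0.315 ± 0.0424 against 0.233 ± 0.184 FPKM and at 0.575 ± 0.110 against 0.170 ± 0.0698 FPKM.

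**Figure D5:**
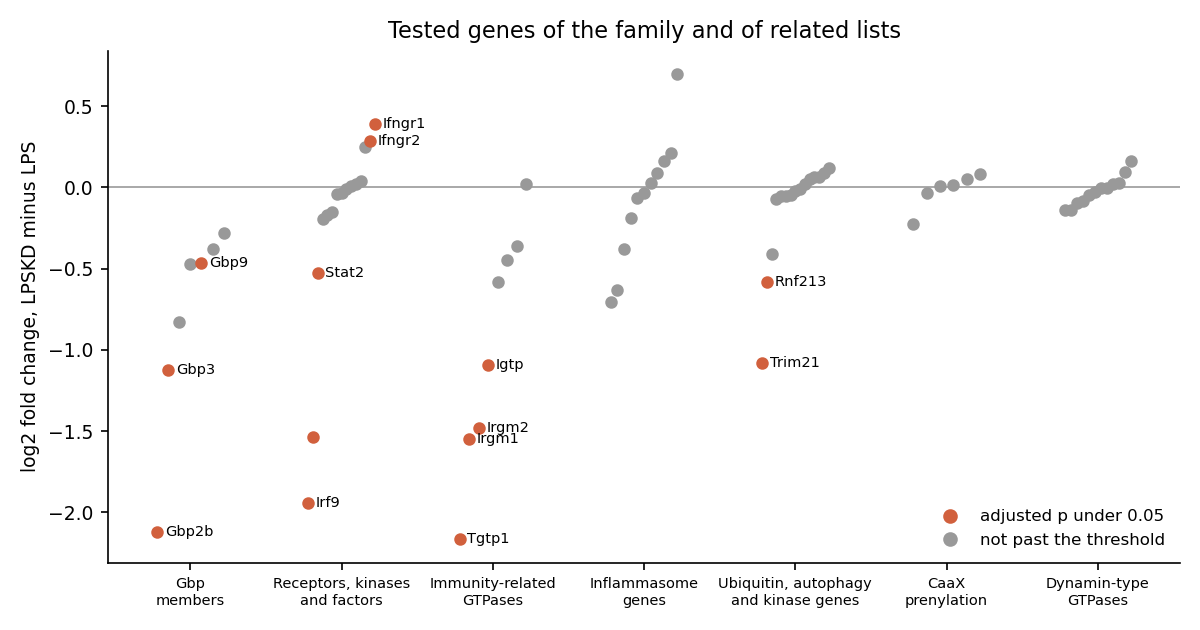
Log2 fold change, LPSKD minus LPS, of the tested genes of the family (7 members) and of 6 related lists; orange points passed an adjusted p of 0.05, and all but 1 of them carry a name. All 4 orange points of the immunity-related GTPases lie below 0, while those of the receptors, kinases and factors lie on both sides (3 below, 2 above). The inflammasome, prenylation and dynamin-type lists have no orange point.

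Marker genes moved between the groups as well, where 1.57% of all genes tested were called higher and 1.66% lower. Of the 10 epithelial markers, Pax2, Pax8 and Cdh16 rose by 0.60, 0.39 and 0.27 on the log2 scale and Krt18 fell by 0.15 (limma adjusted p = 0.00101, 0.00844, 0.00935 and 0.0319), while Krt8 was at a log2 fold change of -0.04. The macrophage marker Csf1r rose by 0.45 (limma adjusted p = 0.0208), with the other 5 tested macrophage markers not past the threshold in limma. Of these, Cd14, which binds LPS for its receptor, had a log2 fold change of 0.19 with no overlap (adjusted p just over the threshold) and was called higher by voom, Cd68 one of -0.30 (adjusted p = 0.197), and Ptprc and Adgre1 ones of -0.18 and -0.39. Cd3e, which defines T cells, did not exceed 0.433 FPKM, and Pecam1, Cdh5, Col1a1 and Pdgfrb did not pass. The part of these differences in the values of the Gbp genes was not tested.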

How the data were processed

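RNA-seq libraries of mTECs labelled LPS (n = 3) and LPSKD (n = 3) were analysed. The authors deposited FPKM values, 1 per gene and library, without pooling. The submitters' processing notes name Bowtie 0.12.2, HISAT2 2.0 and StringTie 1.3.0 and the builds mm8 and GRCh38.p13, without roles. Of 22442 gene identifiers, 22399 matched a GENCODE M21 symbol. Multiplied by coding length and a fitted library total, 98.2% of the 16792 genes with a coding length gave whole fragments (within 0.1 fragment) in all libraries.

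Tests used limma 3.58.1 in R 4.3.3 (lmFit, eBayes with trend) on log2(FPKM + 0.1). The fit took the 11723 genes whose mean FPKM reached 0.5 and no covariate, with Benjamini-Hochberg adjustment over all of them and a threshold of 0.05. Single values had two-sided exact permutation tests over 20 assignments of labels. The self-test on simulated data of this comparison recovered 96 of 100 genes changed by 1 log2 unit and 97 of 97 changed by 2, with 13 unchanged genes called of 11466 tested. It gave every gene the same spread between replicates beyond counting and drew the changed genes from all levels above the filter. The recovery therefore does not hold for members with few fragments or a wider spread. Stretches of 31 coding bases were matched to GENCODE transcripts on both strands.

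The members, the related lists, the markers and the rule for named genes were chosen with earlier results of these data known. The rule takes the members, the other Gbp genes, Stat3, preset genes of each list with the 2 largest changes past the threshold, and the 5 nearest profiles. Stat2, Zbp1, Ninj1, Dnm1l, Ehd1, Cd14, Cd68, Lyz2, Gm43302, the values of Tgtp2 and the ratio of Gbp8 to Gbp9 were added after their values were seen. So were the sums over 11 Gbp genes and over the 6 Gbp genes of chromosome 5. Some genes covered by the lists are not reported by name here. Alternatives were pseudocounts of 1 and 0.01, a filter at 1 and none, quantile normalization, median centring, no trend in eBayes, a block for the replicate number, voom on recovered fragments and each library left out. Figures used matplotlib 3.10.9.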

Additional observations from a re-analysis of the deposited data

How the results depend on the processing

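The direction of each of the 8 members and of Gbp8 stayed the same under all alternatives run, and Gbp8 passed under each. The summed FPKM kept its direction except over all 11 Gbp genes (4.38%) and over the 6 Gbp genes of chromosome 5 (18.9%). Both sums were added after seeing the data. The calls of Gbp2b, Gbp3 and Gbp9 were lost without the filter (adjusted p = 0.0673, 0.0690 and 0.0564 at log2 fold changes of -2.12, -1.12 and -0.46), leaving 0 members, and with eBayes without trend (adjusted p = 0.0813, 0.0655 and 0.0742), leaving 0 of the members and 140 genes in all. With a pseudocount of 0.01, Gbp2b was at -2.54 and was lost. The filter at 1 left Gbp2b, Gbp5 and Gbp7 untested. Voom called 582 genes and kept the call of all 3 members (adjusted p = 0.0061, 0.0048 and 0.0065). With 1 library left out, the count of members called ranged from 0 to 2 and that of genes from 158 to 356, against 379. The log2 fold change then ranged from -2.53 to -1.79 for Gbp2b, from -1.28 to -0.97 for Gbp3, from -0.54 to -0.40 for Gbp9 and from -0.0641 to 0.0444 for Stat3. In these fits the arm left with 2 libraries shares the spread estimated over both. The cause of these losses was not tested.

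The replicate numbers did not pair the libraries: the deviations of LPS and LPSKD libraries with the same number correlated at -0.02, -0.0039 and -0.04, and no library correlated best with its own number. With the replicate number as a block, 213 genes and 0 members were called, with Gbp2b at -2.12, Gbp3 at -1.12 and Gbp9 at -0.46 (adjusted p = 0.0966, 0.0617 and 0.0570).

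Genes not past the threshold that crossed 0 with 1 library left out were Socs1 (-0.48 to 0.0825), Casp4 (-0.00656 to 0.0742), Gsdmd (-0.0561 to 0.51), Pycard (-0.45 to 0.51, and 0.38 with a pseudocount of 0.01), Il18 (-0.65 to 0.51), Fnta (-0.0148 to 0.0426), Fntb (-0.0182 to 0.0944), Ptprc (-0.41 to 0.24), Cd3e (-0.84 to 0.15), Cdh5 (-0.0430 to 0.39) and Col1a1 (-0.58 to 0.0483), all on the log2 scale. Among the other named genes that passed, Stat2, Ifngr2, Irgm2, Igtp, Trim25, Krt18, Cdh16, Pax8 and Csf1r lost the call under 3, 6, 3, 1, 2, 8, 3, 1 and 5 of 15 alternatives, while Mndal passed with voom and Pggt1b without LPS replicate 2. Gbp5, Gbp6, Gbp7 and Gbp2b rest on at most 69 fragments a library, with wide counting errors.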
